A study of Danio rerio with 21 samples.

Results

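The genes described here are 200 zebrafish genes that were near zero in the libraries of sham-operated and cryoinjured hearts at 1 day post injury (dpi). They were counted in every resection library of the same day. The libraries were made from nuclei pulled down as macrophage nuclei, though heart muscle RNA was abundant in them. These 200 genes were chosen from the measured counts. A gene had to have at most 3 counts in each of the 3 sham and 2 cryoinjury libraries at 1 dpi, which 13789 of the 31952 genes with complete counts did. These genes were ranked by their lowest level over the 3 resection libraries at 1 dpi, in CPM (the count over the total of its library, times 1000000), and the first 200 were kept. The 1 dpi values therefore follow from the choice and are given as a description. The libraries at 5 and 14 dpi had no part in it.

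All 21 libraries came from adult fish carrying 2 transgenes, TgBAC(mpeg1:BirA-Citrine) together with bactin:Avi-Cerulean-Rangap (allele ox133). In this line the macrophage promoter mpeg1 drives a biotin ligase, a β-actin promoter drives an Avi-tagged nuclear envelope protein in all cells, and nuclei that acquire biotin are pulled down on streptavidin beads. Shams had surgery without a ventricular wound, cryoinjury froze part of the ventricle and resection cut off tissue at the apex. At 1 dpi there were 3 shams, 2 cryoinjury and 3 resection libraries, at 5 dpi 2 of each, and at 14 dpi 4 shams and 3 cryoinjury libraries but no resection. At 14 dpi, 3 shams came from round 1 of the experiment, and 1 sham and the 3 cryoinjury libraries came from round 2. By the study's methods each sample was prepared from 1 operated heart.

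Macrophages reach a cut or frozen heart from the circulation and from resident pools, clear dead cells, signal to other cells through cytokines and take part in matrix deposition and removal. In zebrafish, both wounds are followed by regrowth of the muscle, with a transient fibrotic scar after freezing. Nuclear RNA reports what is being transcribed and processed rather than the mature cytoplasmic pool. A gene near the limit of detection can be missed in a library prepared from few nuclei, and a lower count in a bulk library cannot tell fewer cells of a type from less RNA in each cell.

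Total counts per library ran from 10577395 to 61141100, and 3 counts corresponded to 0.0491 to 0.284 CPM. The 3 resection libraries at 1 dpi were among the shallower, with 16213475 to 17851176 counts, yet had 18266 to 19337 genes above 3 counts, more than any other library. The 1 dpi shams had 10543 to 12453 such genes and the 1 dpi cryoinjury libraries had 11775 and 14396. Heart muscle RNA was abundant in all of them: the 11 cardiomyocyte marker genes summed to 77074 to 92334 CPM in the 1 dpi shams, 49088 to 50908 CPM after cryoinjury and 39521 to 54448 CPM after resection. The 24 macrophage identity genes summed to 96.7 to 268 CPM in the 1 dpi shams, 544 to 806 CPM after cryoinjury and 1046 to 1403 CPM after resection, and all 24 were above 3 counts in each resection library. The epithelial markers epcam, cldnh and cdh1, which also mark mpeg1-positive epithelial-like cells, summed to at most 0.556 CPM in the 1 dpi shams, 26.4 and 71.6 CPM after cryoinjury and 119.7 to 251 CPM after resection. Erythrocyte genes summed to 1126 to 5668 CPM after resection and to 167 to 639 CPM in the shams. The part of these differences in the detection of the 200 genes was not tested.

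The choice of scale matters at 1 dpi. Over 8015 genes above 3 counts in all 6 libraries, the median difference between resection and sham was 1.21 on the log2 scale of CPM and -0.12 after scaling by the trimmed mean of M-values (TMM). The 200 genes summed to 1208.5, 1656 and 1683 CPM in resection 2, 3 and 4, and to 652 to 928 TMM-scaled CPM. In the shams and cryoinjury libraries they summed to 0.515 to 2.60 CPM, or 0.527 to 4.22 TMM-scaled CPM. Hence the members stood far above the shift of all genes on either scale, which the limit on the counts had fixed.

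Of the 1000 values in the 5 sham and cryoinjury libraries at 1 dpi, 837 were 0, and 102 members had no count in any of them. The highest count was 1 for 37 members, 2 for 33 and 3 for 28. Cryoinjury 3 had the fewest members at 0, with 128, against 188 in sham 3. In the resection libraries the members had between 34 and 1298 counts. The lowest resection level ran from 18.6 CPM at rank 1 through 3.47 CPM at rank 100 to 2.07 CPM at rank 200. In CPM, and against 3 counts in the shallowest of the 5 other libraries, that lowest level was at least 175-fold higher for the first member. For the last it was at least 19.5-fold higher. TMM scaling multiplied the library totals by 1.81 to 1.85 for resection and by 0.446 to 0.994 for the other 5, so both bounds would be smaller on that scale.

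At the threshold 4 genes tied with 37 counts in resection 3. Of these, ankdd1b, an ankyrin and death domain gene, and si:dkey-246g23.2 were taken in by the order of their Ensembl IDs. The other 2, znf985, a zinc finger gene, and si:dkey-3p4.3, were the first outside with the same 2.07 CPM, followed by noxo1a, a NADPH oxidase organizer, at 2.06 CPM. A further 34 genes reached the same level after resection and missed the limit by a single count, with a highest value of 4. The membership leaned on single libraries: 88 of the 200 stayed when cryoinjury 3 was left out of the limit and 128 stayed without cryoinjury 2. Leaving out 1 sham kept 134 to 170, and leaving out 1 resection library kept 139 to 145.

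The 3 resection libraries were not equal. Resection 2 held the lowest of the 3 values for 87 members, resection 3 for 59 and resection 4 for 54. The highest value was 2.50 times the lowest for the median member and 17.1 times at most, and for 75 members it was under 2 times. The plot of member levels by library shows the resection boxes at 1 dpi standing clear of all others, and the later libraries spread from 0 upwards.

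**Figure D1:**
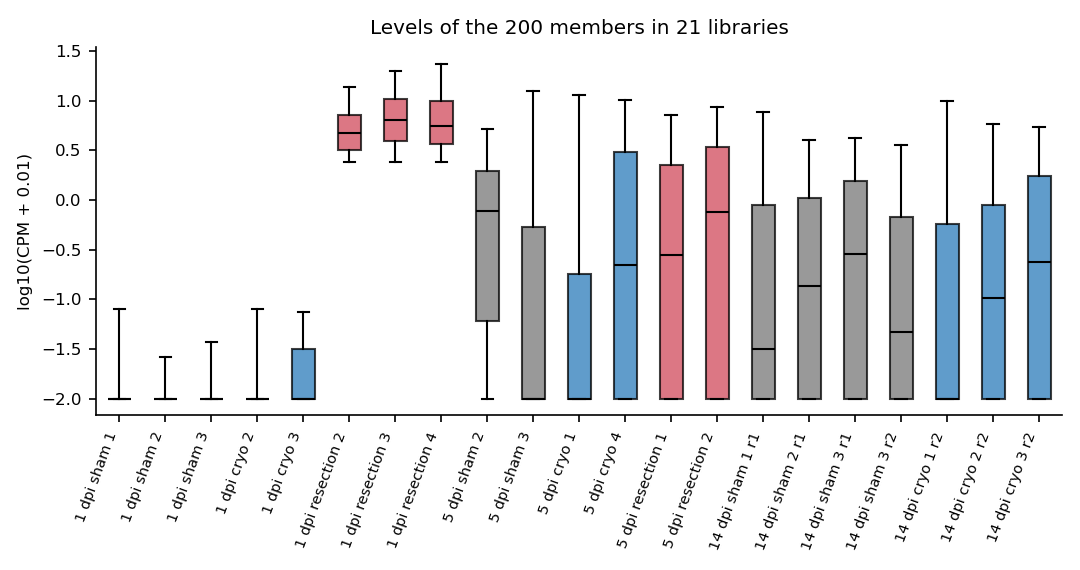
Levels of the 200 members in each of the 21 libraries, as log10(CPM + 0.01), with sham in grey, cryoinjury in blue and resection in red. Boxes span the quartiles, lines mark medians and whiskers reach the 5th and 95th percentiles. Medians were 4.75 to 6.41 CPM in the 1 dpi resection libraries and at most 0.759 CPM in any library at 5 or 14 dpi.

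A name was found for 194 members, of which 59 carry a clone-style name and 135 a gene symbol. Of the 159 members matched by symbol to RefSeq (assembly GRCz12tu), 154 were protein-coding and 5 were long noncoding RNAs. In that annotation 5 pairs of members lay within 2 genes of each other, among them mlc1 with btbd11b and ankdd1b with poc5, which had no gene between them. Counting used the standard featureCounts settings, which ignore strand, so reads of overlapping neighbours cannot be told apart. Gene lengths were not given, and levels are compared for 1 gene between libraries and not between genes.

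The 25 lists of cell type and pathway genes drawn up here held few members. Of the 200, 14 were in 9 of the lists, and 16 lists had none, among them keratins, tight junction genes, macrophage identity, endothelium, fibroblasts and collagens. Most genes of these lists were above 3 counts in some sham or cryoinjury library at 1 dpi, which was so for 20 of 23 keratins, 21 of 24 macrophage genes and 45 of 57 collagens. Among the lists mostly within the limit were the lymphocyte list, with 18 of 29 genes within the limit and 1 member, and the Hox genes, with 38 of 47 within the limit and 1 member. Most Hox genes were low after resection too, with 6 above 3 counts in all 3 resection libraries.

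The first 12 members with a name were taken by rank alone, and several are known only by clone names. rhbg, a Rhesus-family ammonia channel of fish gill and skin epithelia, had 11.2, 13.2 and 14.9 CPM in resection 2, 3 and 4, with 1 count in sham 2, 2 counts in cryoinjury 3 and none in the other 3 libraries. itga4, the α4 integrin through which leukocytes hold on to vessel walls, had 8.76, 30.9 and 9.99 CPM, with 8 counts over the 5 other libraries. The 2 genes differed in spread, since the rhbg values lay close together and resection 3 stood high for itga4.

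kremen1, a transmembrane receptor for the Wnt inhibitors of the Dickkopf family, had 10.8, 15.5 and 29.0 CPM. casp6b.1, a caspase of the executioner type that includes caspase 6, had 10.4, 10.4 and 14.9 CPM. SEMA7A (2 of 2), a membrane-anchored semaphorin that in mammals acts on monocytes and T cells, had 29.2, 36.4 and 9.11 CPM, a mean of 24.9 ± 14.1 (SD, n = 3). For SEMA7A (2 of 2) resection 4 was the lowest, whereas for kremen1 and casp6b.1 it was the highest.

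ftr96 belongs to the finTRIM genes, a fish-specific expansion of tripartite-motif ubiquitin ligases with many members induced by viruses, and had 9.19, 13.9 and 16.3 CPM. The other high-ranked members carry clone names: zgc:113298 led with 18.6, 25.7 and 29.9 CPM, and si:ch211-39i2.2 had the highest single value of all members, 76.3 CPM in resection 4. si:dkey-23a17.1 had 26.3, 18.0 and 32.6 CPM, and at the later days stayed between 0.0698 and 0.696 CPM. si:ch211-202f3.3 had 17.02, 23.2 and 39.33 CPM and was later counted in a single library, at 0.59 CPM in the 14 dpi sham of round 2. The clone-named ENSDARG00000040921 had 17.3, 33.1 and 15.2 CPM and reached 7.70 CPM in cryoinjury 4 at 5 dpi. zgc:171592 had 10.4, 12.5 and 10.9 CPM and no product is named for it here.

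For description, 68 members whose function is familiar were sorted by hand into 6 classes after their values had been seen. Immunity was the largest, with 21 members. It held ftr96, ftr58 and ftr98, the TRIM relatives trim35-45 and btr12, the class I antigen presentation genes mhc1lca and mhc1uma, and the interferon-type genes ifi44a3 and SAMD9L. mhc1uma had 3.76, 10.0 and 7.05 CPM, and no count in the 5 other libraries. Reads of finTRIM and class I genes may be shared between close copies, so their counts are uncertain.

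Ligands and receptors were few. ccl19b, a chemokine of the CCL19 type that in mammals attracts cells bearing CCR7, had 3.45, 3.98 and 3.47 CPM and no count in the other 1 dpi libraries. il17rc, a subunit of the receptor for interleukin 17, had 6.78, 5.098 and 7.82 CPM. Downstream in inflammatory signalling stood map3k8, a kinase that in mammals links Toll-like receptors to ERK, with 2.78, 14.1 and 9.99 CPM, and malt2, a paracaspase related to the NF-κB regulator MALT1, with 4.81, 4.15 and 8.58 CPM. The 3 values of ccl19b were the closest together of these, and those of map3k8 the furthest apart.

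In the lists of other blood cells there was a member each for neutrophils and lymphocytes. pglyrp5, a peptidoglycan recognition protein placed in the neutrophil list, had 7.34, 2.35 and 5.47 CPM, and 5 counts over the 2 cryoinjury libraries. The 12 neutrophil genes summed to 34.5 to 192 CPM in the 1 dpi shams, 266 to 319 CPM after cryoinjury and 203 to 301 CPM after resection, so the sums for cryoinjury and resection overlapped. Single genes of the list differed. mpx, which the study used to follow neutrophils, had 4.26 to 20.0 CPM after resection, 0.248 and 0.258 CPM after cryoinjury and 0 in the shams. lyz had 0 to 2.53 CPM after resection, 0.177 and 0.301 CPM after cryoinjury and 0 in the shams. bcl11ba, a transcription factor needed for T cell development in mammals, had 13.9, 2.35 and 12.99 CPM. The 29 lymphocyte genes summed to 87.5 to 117 CPM after resection against 16.3 and 17.9 CPM after cryoinjury and at most 6.55 CPM in the shams. Of that list, lck, a kinase of T cells, was at 0 in 1 of the 3 resection libraries, with a median of 0.0588 CPM and at most 0.925 CPM. cd79a, a B cell gene, had a median of 0 and at most 0.863 CPM there. The part of neutrophils and lymphocytes in the values of these 2 members was not tested.

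Cell death genes numbered 5. Beside casp6b.1 they were casp3b and casp21, further caspases, cradd, an adaptor with a death domain, and birc7, an inhibitor of apoptosis. casp3b had 9.00, 15.6 and 3.64 CPM after resection and birc7 2.78, 9.52 and 3.76 CPM. Both an executioner-type caspase and an inhibitor were thus among the members.

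Cell division and genome maintenance gave 12 members. plk4, the kinase that starts centriole duplication, had 4.56, 4.20 and 5.996 CPM. sgo1, which protects cohesion at centromeres, had 11.9, 6.16 and 3.82 CPM, and ect2, which acts in cytokinesis, had 3.39, 4.76 and 3.76 CPM. These 3 belong to the list of 33 division genes, 27 of which were above 3 counts in some sham or cryoinjury library. That list summed to 599.5 to 694 CPM after resection, 155 to 189 CPM after cryoinjury and 103 to 347 CPM in the shams.

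Epithelium and matrix gave 9 members. kdf1b, named after a regulator of keratinocyte differentiation, had 3.02, 2.97 and 6.64 CPM, and cdh26.1, a cadherin, had 2.16, 12.6 and 5.00 CPM. ST6GALNAC2 and st6galnac1.1, sialyltransferases that cap mucin-type sugars, had 3.39, 13.1 and 23.6 CPM and 2.41, 6.05 and 4.17 CPM. Members that act on the extracellular matrix were mmp13b, a collagenase, with 2.71, 3.64 and 5.94 CPM, and loxl3a, a lysyl oxidase-like enzyme that cross-links collagen, with 2.16, 4.99 and 3.23 CPM.

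The remaining classes were 13 genes of mitochondria, peroxisomes and metabolism and 8 transcription factors and cofactors. Examples were mgme1, a nuclease of mitochondrial DNA, with 6.48, 7.67 and 8.17 CPM, and pex16, needed for peroxisome assembly, with 4.32, 5.71 and 4.76 CPM. The receptor rxrab, a partner of retinoic acid and other nuclear receptors, had 9.00, 8.35 and 19.2 CPM, and hoxc3a, a Hox gene, had 3.70, 13.7 and 3.47 CPM. Another 132 members were placed in no class, and most of these carry clone names or have no function familiar enough to state.

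In the edgeR quasi-likelihood test over all genes, 188 members were called higher in resection than sham at 1 dpi, where 11.3% of 15764 genes were called higher and 2.37% lower. Against cryoinjury 7 members were called, where 0.213% of 17338 genes were called higher and 1.87% lower. The rule used these libraries, and nothing is read from either count. The count against sham was 0 without any 1 of the 6 libraries (sham 1, 2 or 3, resection 2, 3 or 4). That against cryoinjury was 0 without resection 2, 3 or 4, 179 without cryoinjury 2 (20.8% of all genes called) and 195 without cryoinjury 3 (36.5%).

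At 5 dpi many of the members were detected in all 3 groups. Of the 200, 141 and 61 were above 3 counts in the 2 shams, 49 and 102 in the 2 cryoinjury libraries and 106 and 114 in the 2 resection libraries. The highest number was in sham 2, the resection numbers lay between those of the 2 shams, and both were above those of cryoinjury. The members summed to 329 and 409 CPM in the shams, 499 and 496 CPM after cryoinjury and 330.0 and 498 CPM after resection, so resection overlapped with both other groups and cryoinjury lay above the shams. After TMM scaling the shams, at 301 and 473, spanned the cryoinjury values of 400.0 and 414. The number above 3 counts in both libraries was 84 after resection, 58 in the shams and 34 after cryoinjury, or 42%, 29% and 17% of the members, against 43.5%, 37.0% and 32.5% of all genes.

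The number of members detected followed the number of genes detected in each library. Sham 2 at 5 dpi had 17576 genes above 3 counts, the most at the later days, and cryoinjury 1 at 5 dpi had 11525, the fewest, as they had the most and fewest members. That sham is labelled as merged, as are sham 3 of round 1 and cryoinjury 1 at 14 dpi, with 15798 and 13236 genes above 3 counts. Resection 1 and 2 at 5 dpi had 15842 and 16231 genes. Over the 15964 genes above 3 counts in all 3 resection libraries at 1 dpi, 66.5% to 91.4% were above 3 counts in a library at 5 or 14 dpi, against 24.5% to 70.5% of the members. The scatter plot of members against genes detected shows the later libraries of all groups along 1 rising band. What set the number of genes in a library was not tested.

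**Figure D2:**
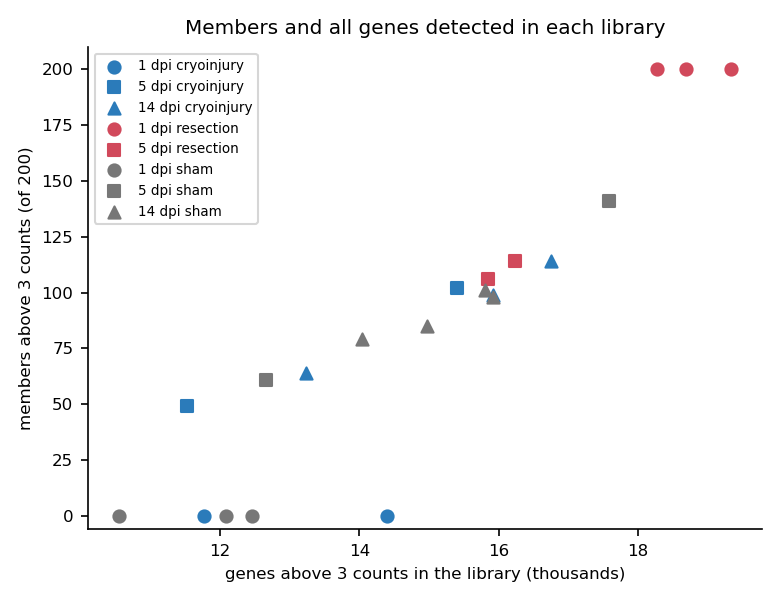
Members above 3 counts (y axis, of 200) against all genes above 3 counts (x axis, in units of 1000) in each library, with colour for the treatment and shape for the day. The 3 resection libraries at 1 dpi lie at 200 and the other 1 dpi libraries at 0 by the rule, and the 13 later libraries run from 49 members at 11525 genes to 141 members at 17576 genes.

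No member was called between groups at 5 dpi by edgeR. For resection against sham 111 members were tested, 0 were called in either direction (0% of 15423 genes called), and 1 had an unadjusted p under 0.05. For resection against cryoinjury 99 were tested, 0 were called (0% of 14709 genes) and 10 had an unadjusted p under 0.05, 9 of them higher after resection. For cryoinjury against sham 91 were tested, 0 were called (0% of 14286 genes) and 5 had an unadjusted p under 0.05. DESeq2's Wald test called 2, 9 and 8 of the 200 members in these comparisons, and 1.01%, 1.69% and 2.02% of all genes. In the first-named group 1, 7 and 2 of these were higher and 1, 2 and 6 lower. Some of the calls fell on members that the edgeR filter had removed. Among these were si:ch211-63b16.4 (log2 fold 22.9, resection against sham), mhc1lca (-22.9, resection against cryoinjury) and cpt1a2b (23.0, cryoinjury against sham). Folds of that size are not usable as effect sizes. Without sham 2 edgeR called 5 members between resection and sham (9.45% of all genes called), and 1 without sham 3 (0.235%). Between resection and cryoinjury it called 10 without cryoinjury 4 (8.76% of all genes), 3 without cryoinjury 1 (0.641%) and 1 without resection 1 (0.181%).

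The 3 comparisons at 5 dpi share libraries, and their values stand side by side. Both resection libraries exceeded both shams for 33 of the 174 members with a count (18.97%), while 16% of 22964 genes did so, and both lay below for 19 (10.9%), against 9.77% of genes. Both resection libraries exceeded both cryoinjury libraries for 37 of 172 members (21.5%), against 18.1% of genes, and lay below for 11 (6.395%), against 12.4%. Both cryoinjury libraries exceeded both shams for 14 of 172 members (8.14%), against 13%, and lay below for 27 (15.7%), against 12.2%. The shares of members higher after resection, and the share lower than sham, lay slightly above those of all genes. The share lower than cryoinjury lay below that of all genes. None of these margins was tested.

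Some members were still high at 5 dpi, and in sham as well as resection. PPEF2 (1 of 2), a calcium-binding protein phosphatase known from photoreceptors, had 20.96 and 51.1 CPM after resection, 41.3 and 1.25 CPM in the shams and 0 in both cryoinjury libraries. slc16a7, a transporter of lactate and pyruvate, had 5.61 and 5.58 CPM after resection, 7.44 and 2.09 CPM in the shams and 0 after cryoinjury. For both genes resection and sham overlapped and cryoinjury lay below. Both were among the 6 members taken for the highest levels in resection at 5 dpi. Their resection values, and the folds and adjusted p-values that rest on them, are therefore given as a description. In CPM, and against 3 counts in the shallower cryoinjury library, the lower resection value was at least 90.9-fold higher for PPEF2 (1 of 2) and at least 24.2-fold higher for slc16a7. The edgeR adjusted p was 0.869 for each, and DESeq2's was 3.43e-07 and 0.0204.

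rxrab, ppm1db, a phosphatase of the PPM1D type that in mammals acts in the p53 pathway, and rad51d, a recombination repair gene, were also at 0 in both cryoinjury libraries at 5 dpi and among those called by DESeq2. ppm1db had 5.90 and 4.25 CPM after resection and 4.00 and 11.8 CPM in the shams. rxrab had 3.26 and 10.9 CPM after resection and 5.52 and 0 CPM in the shams. These 3 were singled out after their values were seen.

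pitpnm3, a phosphatidylinositol transfer protein, had 5.43 and 12.2 CPM after resection, 2.18 and 4.36 CPM in the shams and 10.5 and 0.369 CPM after cryoinjury. mnd1, known for meiotic recombination, had 9.88 and 7.47 CPM after resection, 4.81 and 0.556 CPM in the shams and 0 and 5.01 CPM after cryoinjury. dlgap1b, a scaffold protein of synapses, had 7.93 and 8.98 CPM after resection, 7.69 and 0 CPM in the shams and 0 and 7.55 CPM after cryoinjury. For mnd1 and dlgap1b both resection values were above those of the other 2 groups, for dlgap1b narrowly, while for pitpnm3 they overlapped with cryoinjury. These 3 genes too were taken for high levels in resection at 5 dpi, so nothing is read from that order. None of these 3 genes was called by edgeR or DESeq2 at 5 dpi.

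Other leading members were lower in resection than in sham at 5 dpi. ftr96 had 0.543 and 1.42 CPM after resection against 4.40 and 9.32 CPM in the shams, and SEMA7A (2 of 2) had 0.507 and 1.04 CPM against 1.47 and 5.47 CPM. The first-ranked zgc:113298 had 1.81 and 5.96 CPM against 9.46 and 30.2 CPM. In cryoinjury 1 and 4 at 5 dpi, ftr96 had 0.845 and 0.264 CPM and zgc:113298 had 0 and 5.96 CPM. SEMA7A (2 of 2) had 32.2 and 1.00 CPM there, the first within its 1 dpi resection range of 9.11 to 36.4 CPM. At 1 dpi the order of resection and sham was the reverse for all 3 genes, which the choice of genes had fixed for every member. In CPM, both resection libraries lay below both shams at 5 dpi for 10.9% of the members with a count and 9.77% of all genes. None of the 3 genes was called at 5 dpi.

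A single member kept the pattern by which the set was chosen. mid1ip1a, a regulator of fatty acid synthesis, had 1.303 and 0.662 CPM in resection 1 and 2 at 5 dpi and 0 in both shams and both cryoinjury libraries. The same pattern, more than 3 counts in both resection libraries and at most 3 in the other 4, was found for 151 genes, or 0.473% of all. For 4 members the shams stood out, with more than 3 counts in both shams and at most 3 in both resection libraries, as had 0.883% of all genes.

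The 9 epithelium and matrix members summed to 9.23 and 7.28 CPM in resection 1 and 2 at 5 dpi. They summed to 2.18 and 0.185 CPM in the shams and 4.38 and 9.08 CPM after cryoinjury. Single members differed, and those given here with ccl19b were picked after their values were seen. rhbg had 0.905 and 0 CPM after resection and ccl19b 0 and 0.0945 CPM. kdf1b was at 0 in both resection libraries and mmp13b was at 0 and 0.0945 CPM, while loxl3a had 2.46 and 3.21 CPM, within its range at 1 dpi. Single libraries of the other groups were higher for 2 immunity members picked after their values were seen: il17rc had 8.76 CPM in sham 3 and mhc1lca 27.2 CPM in cryoinjury 4, each above its 3 resection values at 1 dpi. st6galnac1.1 and ST6GALNAC2 were seen in resection 2, at 1.23 and 2.55 CPM, and not in resection 1. The epithelial markers epcam, cldnh and cdh1 summed to 5.86 and 2.74 CPM in resection 1 and 2. They summed to 2.93 and 0.0927 CPM in sham 2 and 3, and to 29.1 and 0.211 CPM in cryoinjury 1 and 4. Division members differed from library to library: ect2 had 3.37 and 5.48 CPM after resection, plk4 6.08 and 0 CPM, and plk4 also had 0.911 and 11.2 CPM in the shams.

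At 14 dpi 79 to 101 members were above 3 counts in the 4 shams, and 64, 99 and 114 in the 3 cryoinjury libraries. Their sums were 141 to 282 CPM in the shams and 230.0 to 285 CPM after cryoinjury, so the groups overlapped. Again the library with the fewest genes above 3 counts, cryoinjury 1 with 13236, had the fewest members, and cryoinjury 3, with 16746, had the most. In all, 28 members (14%) were above 3 counts in all 4 shams and 40 (20%) in all 3 cryoinjury libraries, against 34.8% and 36.3% of all genes.

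edgeR tested 94 members between cryoinjury and sham at 14 dpi and called 0 (0% of 15020 genes called), with 2 at an unadjusted p under 0.05. DESeq2 called 1.12% of all genes, with rell2 the 1 member among them, a relative of the TNF receptor family member RELT, which had 18.6, 2.05, 3.35 and 0.848 CPM in the shams and 0 in all 3 cryoinjury libraries (edgeR adjusted p = 0.368). Every cryoinjury library exceeded every sham for 2 of 193 members (1.04%), where 3.21% of genes did so, and lay below for 2 (1.04%), against 2.49% of genes. Of the 4 shams, 1 was from the round of the cryoinjury libraries, and its 79 members above 3 counts lay within the 64 to 114 of that round.

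The 6 members highest at 14 dpi held ranks from 21 to 188 by the 1 dpi rule. PPEF2 (1 of 2) had a median of 9.08 CPM over the 7 libraries, from 0.0349 CPM in cryoinjury 1 to 15.6 CPM in sham 2 of round 1. rpz6, of the rapunzel family, named after a zebrafish skeletal mutant, had 27.1, 5.84, 8.03 and 4.50 CPM in the shams and 3.17, 18.1 and 7.60 CPM after cryoinjury. sox18, a transcription factor of vascular and lymphatic endothelium, had 0.0649, 1.02, 1.96 and 8.04 CPM in the shams and 11.8, 9.66 and 5.49 CPM after cryoinjury. The cryoinjury libraries were high for sox18 but overlapped with the sham of round 2. The shams of round 1 were lower than every library of round 2, so treatment and round cannot be told apart for this gene.

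The endothelial marker cdh5 had 41.9 to 106 CPM in the same shams and 38.8 to 91.8 CPM after cryoinjury. acsm3, an acyl-CoA synthetase of medium-chain fatty acids, had 1.36 to 5.16 CPM in the shams and 0.559 to 8.30 CPM after cryoinjury. ap4b1, a subunit of an adaptor complex of vesicle traffic, had 0 to 5.45 CPM in the shams and 0, 4.84 and 6.49 CPM after cryoinjury. si:ch211-63b16.4 ran from 0 to 14.4 CPM in the shams and from 0 to 7.83 CPM after cryoinjury. The 2 groups overlapped for each of these genes.

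**Figure D3:**
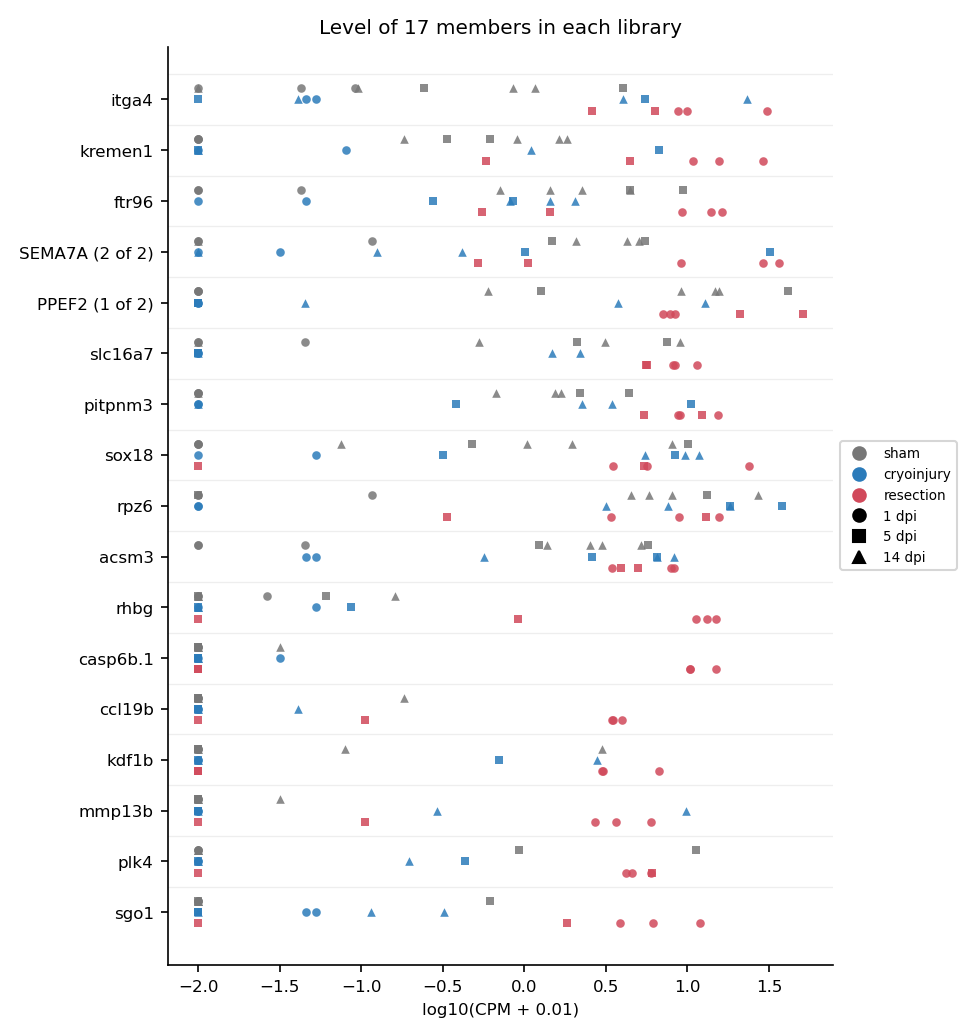
Levels of 17 members in each of the 21 libraries, as log10(CPM + 0.01), with grey for sham, blue for cryoinjury and red for resection, circles for 1 dpi, squares for 5 dpi and triangles for 14 dpi. For ftr96, PPEF2 (1 of 2), rpz6 and acsm3 the later libraries reach into or past the 1 dpi resection values, while casp6b.1 and ccl19b stay at or below 0.173 CPM outside them.

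Across the 13 later libraries the median member was above 3 counts in 6. In at least 1 of the 6 shams at 5 and 14 dpi 177 members (88.5%) were above 3 counts, and 163 (81.5%) in at least 1 of the 5 cryoinjury libraries. Over all genes these shares were 66.5% and 63.4%, and over the genes above 3 counts in all 3 resection libraries at 1 dpi they were 97.3% and 96.1%. For 117 members the highest later value exceeded the lowest 1 dpi resection value, and for 23 the highest later sham exceeded all 3 of those resection values. Shams of different days were not tested against each other.

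Above 3 counts in all 13 later libraries were 4 members, ftr96, acsm3, zfhx3a, a homeodomain and zinc finger factor, and cpxm1b, of the carboxypeptidase X type. These were singled out by that count. zfhx3a had no count at 1 dpi outside resection, 6.66, 3.31 and 4.29 CPM after resection, and 0.584 to 38.4 CPM at the later days.

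At the other end 11 members were above 3 counts in none of the 13. They were casp6b.1, zgc:171592, anxa14, an annexin, ifi44a3, fam83fa, urgcp, zgc:92313, zgc:113279, si:dkey-61p9.7, si:ch211-12p12.4 and 1 gene with no name. Of these, 3 had no count at all later: ifi44a3, zgc:113279 and si:dkey-61p9.7. ifi44a3, related to interferon-induced genes of mammals, had 2.28, 3.92 and 2.70 CPM in the 1 dpi resection libraries, and anxa14 had 4.69, 8.46 and 13.2 CPM. In the later libraries 3 counts were 0.0649 CPM in the deepest to 0.284 CPM in the shallowest, which bounds what could be seen in each.

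The hand-sorted classes differed in how often they were seen later. The median member was above 3 counts in 3 of 13 later libraries for epithelium and matrix, 4 for immunity, 6 for cell death, 6.5 for cell division, 9 for metabolism and 9.5 for transcription factors. Within immunity the range was 0 to 13, from ifi44a3 to ftr96, so the classes overlapped. btr12, mhc1uma, ccl19b, SAMD9L and lgals3bp.3 were each above 3 counts in 1 later library. No test was made of the classes, which were drawn up after the values were seen.

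**Figure D4:**
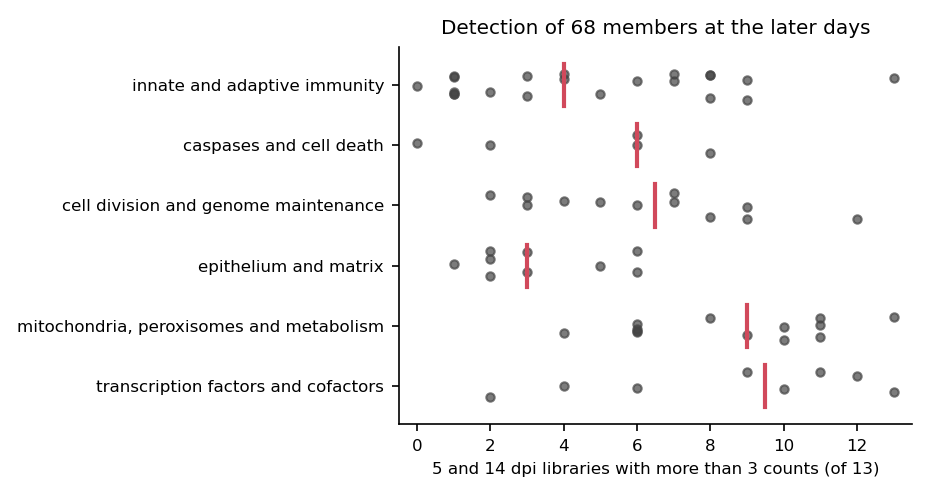
Number of the 13 libraries at 5 and 14 dpi in which each of 68 members was above 3 counts, by class, with 1 point a gene (shifted up or down at random for legibility) and a red line at the median. Medians run from 3 for epithelium and matrix to 9.5 for transcription factors and cofactors.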

How the data were processed

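Paired-end RNA-seq libraries of biotagged macrophage nuclei were mapped by the authors to danRer10 with STAR 2.4.2a and counted with featureCounts, and the deposited values are raw counts per gene without normalisation. What was merged in 3 libraries labelled so is not given in the sources used here. The table had 31953 rows and 23 columns; 1 row with missing values and 2 columns that match no sample were not used. Names were matched by Ensembl ID to a reference and to the names given by the study (26238 named), and 12 members were named from the study alone. The rule left out 3 IDs.

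CPM was the count over the column total. The 2 groups of each comparison were tested with edgeR 4.0.16 in R 4.3.3 (quasi-likelihood, TMM, filterByExpr, Benjamini-Hochberg adjusted p under 0.05 over all genes), tested on simulated data. Alternatives were DESeq2 1.42.0, its size factors, no filter beyond 1 count, all 21 libraries in 1 fit, leaving out each library, a block for the replicate number, a covariate for the round at 14 dpi, and other limits, rankings and scalings. The members, lists and tests were chosen with earlier results of these data known. Members named were the first 12 with a name, up to 4 per list, those at the threshold, the 6 highest in resection at 5 dpi and the 6 highest at 14 dpi; others are named as chosen after their values were seen or as examples of a class. Of the members this rule names, 1 is not reported here.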

Additional observations from a re-analysis of the deposited data

Results flagged for a closer look

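In the 4 shams at 14 dpi, 1 library stood apart from the other 3 for 7 of the 30 named members with more than 3 counts in any of them. The gap to the nearest library, as a share of the range, was 1 for si:ch211-202f3.3, rhbg, ccl19b and ankdd1b, each with counts in a single sham, so that the share is 1 by construction. For the other 3 it was 0.977 for kdf1b (2.98 CPM in sham 2 of round 1), 0.878 for cdh26.1 (0.698 CPM in sham 3 of round 1) and 0.844 for rpz6 (27.1 CPM in sham 1 of round 1). Chance alone singles out about 1 in 20 groups when the values are normally distributed. That rate does not apply to the 4 genes counted in 1 sham, and it was not checked for the CPM values of the other 3.

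Of the 38 named members, 4 (10.5%) were higher in every resection library than in every sham at 1 dpi and lower at 5 dpi; the difference between days was not tested, the 1 dpi direction was set by the choice of genes, and 9.77% of all genes were lower in both resection libraries than in both shams at 5 dpi. The highest 5 dpi resection value was 5.96 CPM for zgc:113298, 1.42 CPM for ftr96, 1.04 CPM for SEMA7A (2 of 2) and 0.326 CPM for bcl11ba, against a lowest sham of 9.46, 4.40, 1.47 and 0.603 CPM.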

How the results depend on the processing

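Members called at 5 dpi, 0 by edgeR in each comparison, were 2 (resection against sham), 9 (resection against cryoinjury) and 8 (cryoinjury against sham) with DESeq2, and 2 for resection against cryoinjury with no filter beyond 1 count. Without that filter 60 of all genes were called for resection against cryoinjury at 5 dpi. At 14 dpi DESeq2 and no filter beyond 1 count each called 1 member, beside 177 and 172 of all genes. Leaving out 1 library gave 0 to 5 calls for resection against sham, 0 to 10 for resection against cryoinjury, and 0 for cryoinjury against sham at 5 and 14 dpi; the libraries concerned are named beside the results, and the lone library of a group was taken to vary like the other group. At 1 dpi the 188 calls against sham were 200 with DESeq2, 6 with no filter, 14 with all 21 libraries in 1 fit, 0 with the replicate number as a block and 0 without any 1 library. The 7 calls against cryoinjury were 200 with DESeq2, 67 with no filter, 0 with all 21 libraries, 2 with the replicate block and 0 to 195 without 1 library. Over all genes 2154 were called against sham at 1 dpi in the main test and 4288 with DESeq2. No filter gave 225, all 21 libraries 593 and the replicate block 53. Against cryoinjury the main test called 362 of all genes and DESeq2 4552. No filter gave 891 there, all 21 libraries 238 and the replicate block 303. The cause of these changes was not tested. Same-numbered libraries did not deviate together at 1 dpi (r from -0.0724 to -0.0257 across genes). With 2 cryoinjury libraries the deviations from the group mean mirror each other, so these values cannot tell whether the number marks a pairing. At 14 dpi (r from -0.0361 to 0.018) neither the replicate block nor the round changed the count of 0; at 5 dpi no paired analysis was possible because the groups share fewer than 2 numbers. Of the 200 members, 102 stayed with a limit of 0 counts, 116 with a limit of 10, 144 when ranked by the mean, 197 when ranked by DESeq2-normalised counts, and 88 to 170 when 1 library was left out. The median number of members detected in the later libraries, 99 above 3 counts, was 120 above 0 counts, 75 above 10 and 105 above 0.1 CPM.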
